A study of Mus musculus with 4 samples.

Results

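Atg16l1 lies on mouse chromosome 1, and the genes described here are its listed neighbours on either side, from Sp110 and Sp100 at one end of the interval to D2hgdh at the other. They were taken from a list of 57 gene symbols on either side of Atg16l1, which holds only part of the genes of the interval. The list was set with earlier results of these data known. Of the 57 symbols, 53 had at least 1 probe set annotated to them alone, which gave 125 of the 45037 probe sets on the array that are not controls. A probe set is the group of short DNA probes that reports 1 transcript. Tigd1 and Arl4c had no such probe set, and the probe sets of Ptma and Hjurp carried several symbols and were not used. With the array genes ordered along the chromosome, 17 of the 53 lay before Atg16l1 and 36 after it, and another 44 genes of the interval with their own probe sets were not on the list.

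The samples were Paneth cells, the antimicrobial secretory cells at the base of small intestinal crypts, cut from mouse tissue by laser capture. There were 2 arrays of Atg16-hypomorph cells, which carry an Atg16l1 allele of reduced function, and 2 arrays of wildtype cells, all from mice of strain mixed C57BL/6 - 129ola. The sources used here do not state how the allele was made, the animals' age or sex, or the number of animals. Since no label ties the arrays to separate mice, every p-value reflects the variation among these 4 samples alone, and that variation may be technical. Values are the deposited linear intensities. Differences were taken as hypomorph minus wildtype after adding 32 to each intensity and taking log2, so changes of dim genes appear smaller than they are.

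As background, Atg16l1 encodes a scaffold that directs the lipidation of ATG8 proteins on the growing autophagosome. When an altered allele made in one mouse strain is bred in a mixed or different strain, the stretch of chromosome next to it is inherited with it, and neighbouring genes may then carry alleles of the donor strain. Neighbours of an altered gene can differ for that reason whether or not they act in its pathway. The genes here share a position and not a function, and include chromatin factors, RNA-binding proteins, ubiquitin enzymes, signalling proteins, receptors, transport proteins and metabolic enzymes. The comparison asked whether the transcripts of the flanking genes differed between hypomorph and wildtype cells. The arrays give no genotypes, so the presence of donor DNA itself was not tested.

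Of the listed flanking genes, 5 had a probe set that differed between the groups, all of them on the far side of Atg16l1 towards D2hgdh. Among the unlisted genes of the interval, Alpi was called on the near side and Per2 on the far side. D2hgdh, Mlph and Usp40 were lower in hypomorph cells and Sh3bp4 and Lrrfip1 were higher. The 5 calls were among 77 member probe sets bright enough to test, 6.49% of them, against 3.71% of all 22519 tested probe sets (limma, adjusted p under 0.05). By direction 2 of the 77 were higher, where 2.04% of all tested probe sets were, and 3 were lower, where 1.67% were. Taking each gene by its brightest probe set also gave 5 of 41 genes, but with Stk25 in place of Mlph. That was a separate fit with 1 probe set per gene, so 3.71% is not its background. Its share called over all genes is not given here, so the count cannot be set against one. The number of called member probe sets moved when an array was left out, and so did the number over all tested probe sets. Those fits leave 1 array in a group. With no filter on dim probe sets 2 of 125 member probe sets were called, where 303 of 45037 over all were. With no intensity trend in the fit 2 of 77 were called, where 323 of 22519 over all were.

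The altered gene, Atg16l1, read 966 and 995 in hypomorph cells, against 1335 and 1183 in wildtype cells. Both hypomorph values lay below both wildtype values, but the difference of -0.35 (SE 0.105) missed the threshold (limma adjusted p = 0.102). The sources used here do not place the probe set relative to the alteration, which limits it as a test of the labels. Another Atg16l1 probe set read 10.4 and 7.48 in hypomorph and 10.7 and 11.2 in wildtype and was too dim to test.

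**Figure D1:**
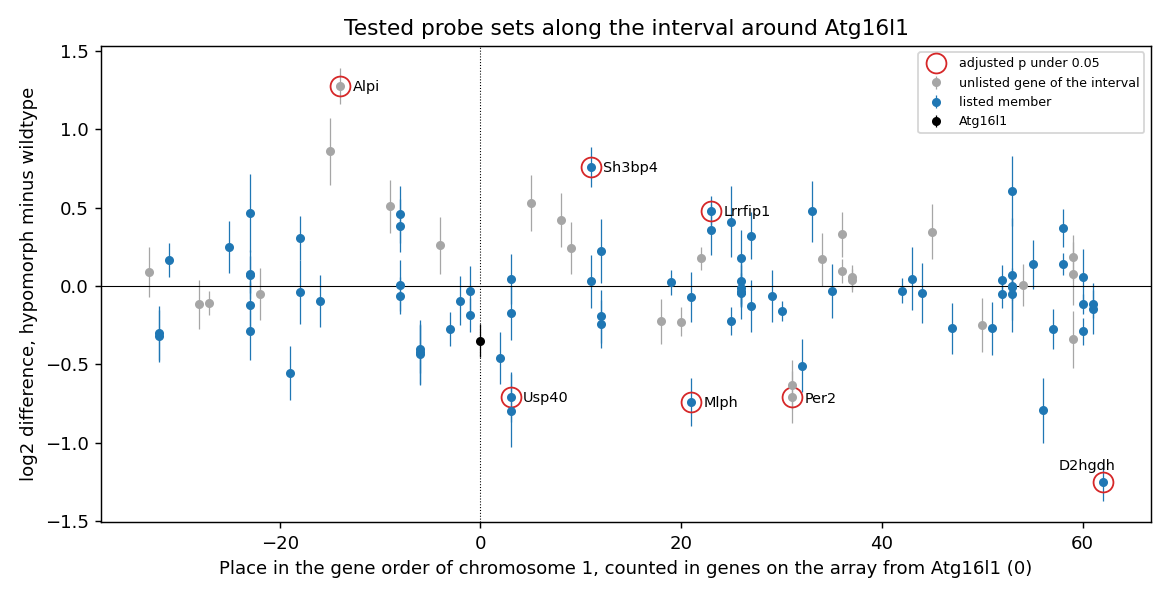
Log2 difference (hypomorph minus wildtype) of each tested probe set against the place of its gene in the order of chromosome 1, counted in array genes from Atg16l1 at 0. Points are listed members, unlisted genes and Atg16l1, bars are standard errors, and rings mark an adjusted p under 0.05. The 5 called member probe sets lie to the right of Atg16l1, 2 above and 3 below the zero line, with uncalled probe sets between them. Rings also mark the unlisted Alpi to the left and the unlisted Per2 to the right.

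D2hgdh, which encodes the mitochondrial enzyme that oxidises D-2-hydroxyglutarate, had the largest difference of any tested member. Its probe set read 441 and 479 in hypomorph cells, against 1084 and 1198 in wildtype cells. The groups were far apart relative to their spread, with a difference of -1.25 (SE 0.117, limma adjusted p = 0.000303). The call was kept under each of the 9 other settings of the fit and without each array in turn. The name of this probe set carries the suffix s, which in this array type marks probes shared by transcripts of several genes. The identity of the transcript is therefore less certain than for the other called member probe sets. The only other D2hgdh probe set was too dim to test, at 36.2 and 28.4 in hypomorph and 37 and 35.6 in wildtype.

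Sh3bp4, an adaptor protein known from human cells for regulating clathrin-mediated uptake of the transferrin receptor, was the member with the largest rise. It read 551 and 561 in hypomorph cells, against 316 and 313 in wildtype cells. The arrays within each group nearly coincided, and the difference was 0.76 (SE 0.128, limma adjusted p = 0.0112). This call, too, was kept under the 9 other settings and without each array. A second tested probe set of the gene did not follow it, with 96 and 115 in hypomorph against 95.9 and 109 in wildtype. The mean of both probe sets gave 0.40 and was not called (limma adjusted p = 0.0808).

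Lrrfip1 encodes a nucleic acid binding protein with a role in innate sensing and in transcription. Its bright probe set read 1935 and 2106 in hypomorph cells, against 1369 and 1508 in wildtype cells. Both hypomorph values were above both wildtype values, with a difference of 0.48 (SE 0.0942, limma adjusted p = 0.0233). The call was lost without wildtype replicate 1, with no filter on dim probe sets and with no intensity trend. A dimmer probe set had 137 and 119 in hypomorph and 98 and 86.6 in wildtype, in the same order, and missed the threshold (0.36, limma adjusted p = 0.255). The mean of both was called (0.42, limma adjusted p = 0.0375).

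Mlph encodes melanophilin, which links Rab27a on vesicles to the motor myosin Va and is best known from pigment granules. One of its probe sets read 183 and 157 in hypomorph cells, against 291 and 320 in wildtype cells, a difference of -0.74 (SE 0.154, limma adjusted p = 0.0306). The other read 223 and 268 in hypomorph against 238 and 280 in wildtype, and its groups overlapped (-0.07, limma adjusted p = 0.857). The gene's probe sets therefore gave different answers. The call of the first was lost when hypomorph replicate 2 or either wildtype replicate was left out, and with no filter or no intensity trend.

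Usp40, a member of the ubiquitin-specific protease family, is the called gene nearest to Atg16l1, 3 array genes after it in the order. The called probe set read 207 and 174 in hypomorph cells, against 361 and 302 in wildtype cells (difference -0.71, SE 0.16, limma adjusted p = 0.0431). A second read 79.3 and 159 in hypomorph against 226 and 216 in wildtype, lower on both hypomorph arrays but uneven between them (-0.80, SE 0.234, limma adjusted p = 0.0956). The remaining pair gave -0.17 and 0.04, and in both the groups overlapped. The call was lost when hypomorph replicate 2 or either wildtype replicate was left out, after quantile normalisation, and with no filter or no intensity trend.

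**Figure D2:**
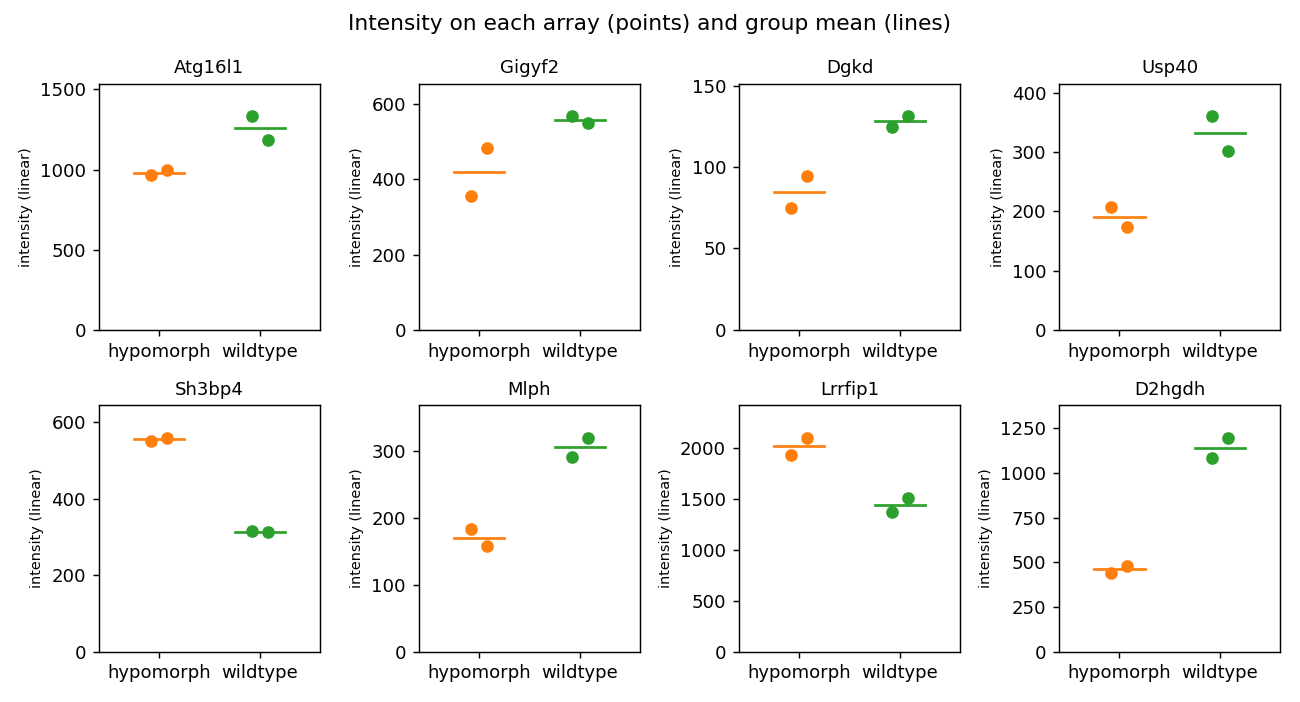
Linear intensity on each array for 1 probe set of Atg16l1, of its neighbours Gigyf2 and Dgkd, and of the 5 called genes. Points are the arrays, with hypomorph to the left and wildtype to the right, and short lines are group means. The hypomorph points lie above the wildtype points for Sh3bp4 and Lrrfip1 and below them in the other panels.

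Promoters of the called genes are shown as annotated start regions of these genes. The sources used here do not tie a called probe set to a given start. RefSeq sequences of build GRCm38.p6 cover 250 bases before to 50 after the annotated start, and 53 of the 57 listed members matched an entry. The sequences below run 5′ to 3′ on the gene's strand. Capitals mark the searched motifs on either strand, which were the E-box CACGTG, the CCAAT box, the GC box GGGCGG and the TATA-like TATAAA. Lrrfip1 has another annotated start, which is not printed.
D2hgdh promoter, chr1:93824990-93825289, plus strand: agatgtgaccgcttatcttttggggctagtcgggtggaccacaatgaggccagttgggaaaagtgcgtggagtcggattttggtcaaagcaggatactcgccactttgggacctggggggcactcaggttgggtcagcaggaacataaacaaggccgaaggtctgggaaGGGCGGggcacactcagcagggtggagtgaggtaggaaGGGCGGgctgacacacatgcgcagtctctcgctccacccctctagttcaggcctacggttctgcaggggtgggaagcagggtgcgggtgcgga
Usp40 promoter, chr1:88008502-88008801, minus strand: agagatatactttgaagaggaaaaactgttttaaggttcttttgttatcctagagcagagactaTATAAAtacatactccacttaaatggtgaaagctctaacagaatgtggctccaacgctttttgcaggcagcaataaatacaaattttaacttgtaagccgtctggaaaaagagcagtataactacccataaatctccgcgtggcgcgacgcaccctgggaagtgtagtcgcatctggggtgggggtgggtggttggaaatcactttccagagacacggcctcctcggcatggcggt
Sh3bp4 promoter, chr1:89070165-89070464, plus strand: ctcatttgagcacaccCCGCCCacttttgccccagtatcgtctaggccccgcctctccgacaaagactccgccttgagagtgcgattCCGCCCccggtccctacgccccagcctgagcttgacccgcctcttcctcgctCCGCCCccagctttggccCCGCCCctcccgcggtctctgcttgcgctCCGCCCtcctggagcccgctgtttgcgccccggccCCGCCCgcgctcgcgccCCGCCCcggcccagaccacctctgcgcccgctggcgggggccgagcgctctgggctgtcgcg
Mlph promoter, chr1:90914850-90915149, plus strand: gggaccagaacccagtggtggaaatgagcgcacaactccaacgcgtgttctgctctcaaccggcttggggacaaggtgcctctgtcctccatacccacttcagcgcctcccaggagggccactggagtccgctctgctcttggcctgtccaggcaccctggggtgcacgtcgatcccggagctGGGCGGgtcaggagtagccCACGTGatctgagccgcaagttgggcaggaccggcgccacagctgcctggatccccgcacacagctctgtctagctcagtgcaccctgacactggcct
Lrrfip1 promoter, chr1:90998477-90998776, plus strand: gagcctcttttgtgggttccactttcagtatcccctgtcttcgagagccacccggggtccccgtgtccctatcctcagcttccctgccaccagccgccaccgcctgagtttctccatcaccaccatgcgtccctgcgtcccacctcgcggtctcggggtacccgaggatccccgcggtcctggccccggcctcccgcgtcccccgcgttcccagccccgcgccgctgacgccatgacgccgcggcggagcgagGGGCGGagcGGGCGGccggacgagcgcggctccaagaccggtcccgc

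The GC box was found 7 times in the Sh3bp4 window, 2 times in those of D2hgdh and Lrrfip1 and once in that of Mlph, and not in that of Usp40. It occurs in 35.7% of the 32851 promoter windows of this length. The Usp40 window held the TATA-like motif, present in 13.6% of all windows, and the Mlph window held the E-box, present in 7.15%. None of the 5 held the CCAAT box, which 37.4% of all windows hold. GC content was 45% for Usp40, 59.7% for D2hgdh, 64.3% for Mlph, 72% for Lrrfip1 and 73.3% for Sh3bp4, against a median of 52.7% over all windows. These matches describe the letters of the reference strain only.

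Most probe sets of the listed genes closest to Atg16l1 had negative differences that did not pass the test. Over the 4 nearest tested members on either side there were 17 tested probe sets, of which 13 (76.5%) had a negative difference and 2 (11.8%) were called, where 56% of all tested probe sets were negative and 3.71% were called. In 10 of the 17 both hypomorph values lay below both wildtype values and in 1 above, where the shares over all tested probe sets were 29.9% and 21.8%. The median difference was -0.19, against -0.03 over all tested probe sets. Several of these probe sets belong to the same gene, so they are not independent, and their difference from the rest of the array was not tested. The counts also leave out the unlisted genes of the same stretch, whose tested probe sets were all positive. Snorc, Mroh2a, Gm29538 and Glrp1 gave 0.26, 0.53, 0.42 and 0.24, and none was called. In all but Snorc both hypomorph values lay above both wildtype values. Mroh2a, at 76.1 and 83.9 in hypomorph and 38 and 53.8 in wildtype, passed the brightness limit through its hypomorph values. Dimmer probe sets of unlisted genes in this stretch were not tested and had both signs. They ranged from -0.28 for another Mroh2a probe set to 0.47 for Kcnj13.

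On the near side, the translational repressor partner Gigyf2 had 3 tested probe sets that moved alike. The brightest read 355 and 483 in hypomorph against 569 and 548 in wildtype (difference -0.40, SE 0.155, limma adjusted p = 0.183), and the others gave -0.42 and -0.43. All 3 had both hypomorph values below both wildtype values, and none passed the threshold. The value of the brightest rested on the hypomorph arrays, with -0.61 and a call without hypomorph replicate 2 (limma adjusted p = 0.0404) and -0.20 without hypomorph replicate 1 (limma adjusted p = 0.584). Ngef, a guanine nucleotide exchange factor, read 1052 and 1111 in hypomorph against 1418 and 1213 in wildtype (-0.27, limma adjusted p = 0.197). The sialidase Neu2 had 145 and 135 in hypomorph and 151 and 151 in wildtype. For Inpp5d, the SHIP1 lipid phosphatase of blood cells, the brighter probe set read 1102 and 1029 in hypomorph against 1291 and 1142 in wildtype (-0.18, 95% interval -0.422 to 0.052). Of these 4 genes, none passed the threshold.

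On the far side, Dgkd, a diacylglycerol kinase, follows after the untested photoreceptor arrestin Sag. Its tested probe set read 75 and 94.5 in hypomorph against 125 and 131 in wildtype (-0.46, SE 0.169, limma adjusted p = 0.164). The annotated ends of Dgkd and Usp40 overlap in the gene table, and the sources used here do not place their probe sets relative to the overlap. Beyond Usp40 the direction was not kept, since Sh3bp4 rose. Agap1, an Arf GTPase-activating protein, had a brightest probe set at 302 and 247 in hypomorph against 336 and 322 in wildtype, with differences of -0.24, -0.19 and 0.22 over its 3 tested probe sets.

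Of the 27 tested probe sets of unlisted genes between the same ends of the interval, 18 had a positive and 9 a negative difference (33.3% negative, against 61% of the members' and 56% of all tested probe sets). Their median was 0.09, against -0.04 for the members and -0.03 over all, and 2 were called (7.41%, against 3.71% over all). The difference between listed and unlisted genes was not tested. Alpi, the intestinal alkaline phosphatase of the enterocyte brush border, read 1680 and 1511 in hypomorph against 685 and 592 in wildtype (1.28, SE 0.115, limma adjusted p = 0.000229). It is itself one of the enterocyte markers that were higher in these hypomorph samples. Per2, a repressor of the circadian clock, read 45.2 and 51 in hypomorph against 105 and 93 in wildtype on the called probe set (-0.71, limma adjusted p = 0.0473). A second Per2 probe set gave -0.63 (limma adjusted p = 0.0607). The Per2 call was lost when hypomorph replicate 1 or either wildtype replicate was left out, after quantile normalisation, with an added constant of 1, and with no filter or no intensity trend.

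By role, no group of members had more than 2 called probe sets, and each count stands against 3.71% of all tested probe sets. Among nuclear proteins, 1 of 8 tested probe sets was called, that of Lrrfip1, and the range was -0.16 to 0.48. Thap4, a THAP zinc finger protein, was higher on both tested probe sets (0.37 and 0.14, limma adjusted p = 0.127 and 0.301), and the bright probe set of Hes6, an inhibitor of Hes1, read 4454 and 4760 in hypomorph against 5185 and 5103 in wildtype (-0.16, limma adjusted p = 0.198). Sp100 and Sp110, interferon-inducible nuclear body proteins, were too dim to test, as was the homeobox gene Gbx2.

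RNA and translation genes had 0 of 18 tested probe sets called. Hdlbp, the RNA-binding protein vigilin, gave 0.00 on both of its brightest probe sets and 0.61 on a dimmer one. The brightest, whose name also carries the suffix s, read 3747 and 4042 in hypomorph against 3708 and 4074 in wildtype. Its 95% interval was -0.167 to 0.17, for that probe set on these arrays. The dimmer one had an interval of 0.106 to 1.105. Ncl, nucleolin, ranged from -0.29 to 0.47 over 5 probe sets. Its brightest had 938 and 788 in hypomorph and 818 and 811 in wildtype. Eif4e2, a cap-binding protein that works with Gigyf2 in translational repression, ranged from -0.06 to 0.46 over 4 probe sets.

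Of the ubiquitin and COP9 signalosome genes, 1 of 14 tested probe sets was called, that of Usp40. Cops8, a signalosome subunit, read 2264 and 2183 in hypomorph against 2131 and 2244 in wildtype, with overlapping groups. All 6 probe sets of the NEDD8-conjugating enzyme Ube2f overlapped between groups, with differences of -0.04 to 0.18. Asb1, a SOCS box protein, read 258 and 183 in hypomorph against 170 and 127 in wildtype (0.48, limma adjusted p = 0.206). Cops7b, the signalosome subunit whose gene overlaps Pde6d in the gene table, had overlapping groups on both probe sets (0.31 and -0.04).

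Of 16 tested probe sets of signalling genes 0 were called. In 13 the difference was negative and in 10 both hypomorph values were below both wildtype values, where 56% and 29.9% of all tested probe sets were. Stk25, a kinase of the germinal centre group, read 126 and 76 in hypomorph against 215 and 176 in wildtype (-0.79, SE 0.207, limma adjusted p = 0.067). It gave -1.07 and passed without hypomorph replicate 1 (limma adjusted p = 0.0144), and gave -0.52 without hypomorph replicate 2 (limma adjusted p = 0.126). Cab39, a scaffold of the LKB1 kinase and the first tested member of the order, read 188 and 138 in hypomorph against 210 and 202 in wildtype (-0.30, limma adjusted p = 0.363). Its second probe set gave -0.32.

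Among receptors and sensory genes 0 of 4 tested probe sets were called. Pde6d, a carrier of prenylated proteins, read 92.3 and 122 in hypomorph against 162 and 181 in wildtype (-0.55, limma adjusted p = 0.113). It gave -0.71 and passed without hypomorph replicate 2 (limma adjusted p = 0.0475), and gave -0.40 without hypomorph replicate 1 (limma adjusted p = 0.339). Ramp1, a partner of the CGRP receptor, had opposite signs on its 2 tested probe sets, -0.22 and 0.41. A further Ramp1 probe set, too dim to test, read 2.15 and 24.8 in hypomorph and 67.7 and 69.8 in wildtype. The cold channel gene Trpm8 was too dim to test.

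Traffic and cytoskeleton genes had 2 of 7 tested probe sets called, in opposite directions, those of Sh3bp4 and Mlph, where 3.71% of all tested probe sets were called. Traf3ip1, a component of intraflagellar transport, read 111 and 139 in hypomorph against 201 and 181 in wildtype (-0.51, limma adjusted p = 0.128). Itm2c, a membrane protein related to the BRI2 family, read 2012 and 1916 in hypomorph against 1566 and 1942 in wildtype, and the groups overlapped. The neuronal motor Kif1a was too dim to test.

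Enzymes and surface proteins had 1 of 10 tested probe sets called, that of D2hgdh. The gene that precedes D2hgdh in the order is Ing5, a chromatin protein counted above among the nuclear proteins and not among these 10. Its brightest probe set read 1672 and 1622 in hypomorph against 1878 and 1702 in wildtype (-0.12, limma adjusted p = 0.509). Dtymk, the thymidylate kinase one place before Ing5, gave -0.29, -0.11 and 0.06 over its 3 tested probe sets (lowest limma adjusted p = 0.0939).

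Agreement between probe sets of a gene was limited. Of 19 members with 2 or more tested probe sets, 11 had probe sets of both signs, and in 7 the probe sets differed by more than 0.5 from each other, namely Ncl, Eif4e2, Usp40, Sh3bp4, Mlph, Ramp1 and Hdlbp. Of the 5 called genes Usp40, Sh3bp4 and Mlph are among these 7, Lrrfip1 had probe sets of the same sign, and D2hgdh had only 1 that was tested. The sources used here do not say which exons or ends of a transcript each probe set reports.

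**Figure D3:**
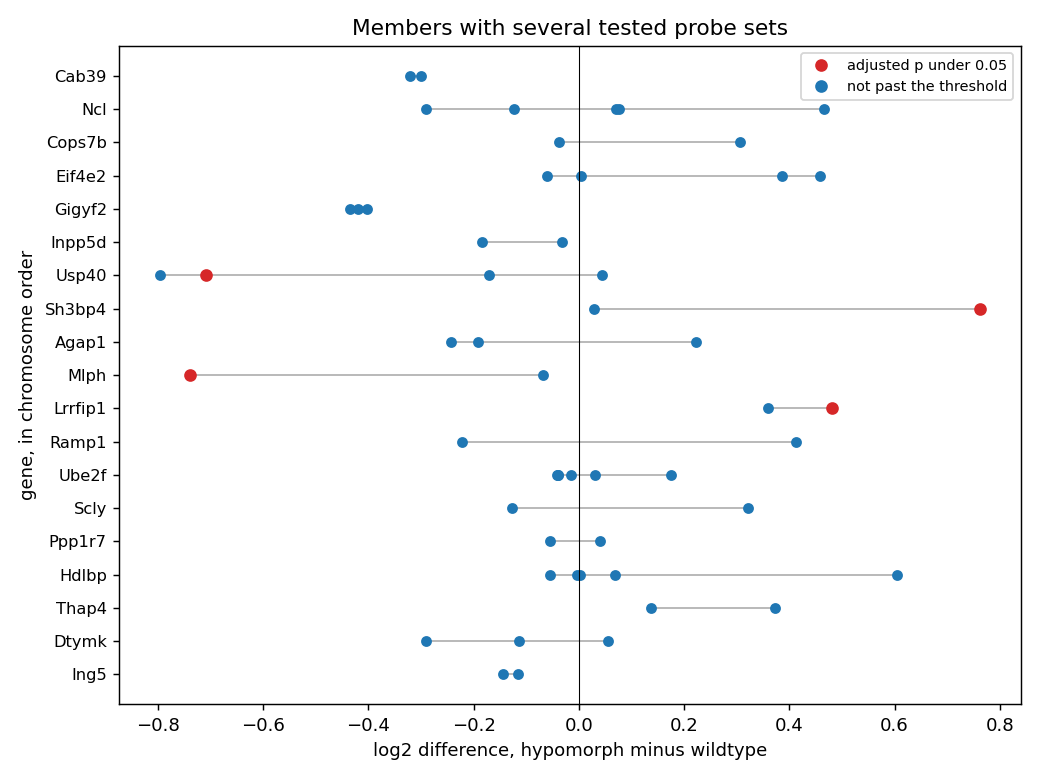
Log2 difference (hypomorph minus wildtype) of each tested probe set for the 19 members that have 2 or more, with genes in chromosome order from the top. Red points passed an adjusted p under 0.05. For Sh3bp4 and Mlph the other probe set lies near zero, Usp40 has 1 blue point beside the red one and 2 closer to zero, and the 3 points of Gigyf2 lie together.

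By their medians the members lay close to the rest of the array, while their shares of large and of called differences were higher. Of the 77, 9 (11.7%) differed by more than 0.5 in size, against 7.65% of all tested probe sets. The called were 6.49% against 3.71%, and neither contrast was tested. The members' median difference was -0.04 over 77 tested probe sets, against -0.03 over all tested probe sets. Their median size regardless of sign was 0.17 against 0.157. Groups did not overlap for 41 of the 77, or 53.2%, and for 51.8% of all tested probe sets, so this share is near the background. Before Atg16l1 0 of 24 tested member probe sets were called and after it 5 of 53, a difference between the sides that was not tested. It holds for listed genes only, since the unlisted Alpi was called before Atg16l1 (1.28) and the unlisted Per2 after it (-0.71). On the rest of chromosome 1, 30 of 1070 were called (2.8%). In a run of chromosome 2 from Slc5a12 to AA467197, which was chosen on these same samples for its calls, 30 of 136 were called (22.1%), with differences from -3.50 to 3.18, against -1.25 to 0.76 among the members.

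**Figure D4:**
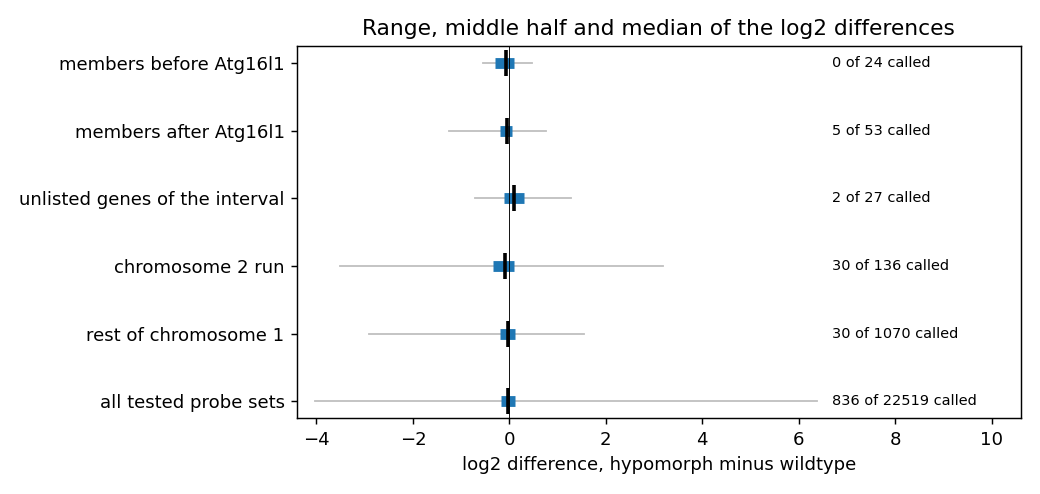
Log2 differences (hypomorph minus wildtype) of tested probe sets for members on each side of Atg16l1, unlisted genes of the interval, the chromosome 2 run, the rest of chromosome 1 and all tested probe sets. Thin lines are the full range, thick bars the middle 50% and ticks the median, with the number called to the right. All medians lie between -0.08 and 0.09, and the range of the chromosome 2 run is wider than that of the members.

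Of the members, 12 had no probe set bright enough to test, namely Sp110, Sp100, B3gnt7, Ecel1, Efhd1, Sag, Trpm8, Gbx2, Asb18, Klhl30, Gpc1 and Kif1a. In all 48 member probe sets were below the brightness limit, with differences from -1.19 to 0.73. A probe set can pass that limit through the group in which it is high, so the tested ones are not a fair sample of the list.

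Other differences ran with the groups. Of 8 fat cell markers on the array 8 were higher in hypomorph, with summed intensities of 26727 to 27316 in hypomorph and 9496 to 9509 in wildtype. Of 9 enterocyte markers 7 were higher (18200 to 18680 in hypomorph and 10237 to 10491 in wildtype), and of 10 enteroendocrine and nerve markers 4 were lower and 1 higher (11664 to 12926 in hypomorph and 13043 to 13998 in wildtype). Paneth cell markers had 0 of 8 called (53214 to 56765 in hypomorph and 56859 to 57496 in wildtype), and leukocyte markers 0 of 10. Only Treh and Uchl1 of these markers were too dim to test. Cidec, Lep and Lct passed the brightness limit through their hypomorph values, with Cidec at 16.9 and 37.9 in wildtype. Over all tested probe sets 2.04% were called higher and 1.67% lower. The marker lists were chosen with earlier results of these data known, so these counts are a description. Xist, which female cells transcribe from their silenced X chromosome, read 4414 and 4510 in hypomorph and 18 and 25.6 in wildtype, so genotype and this sex-dependent difference cannot be told apart. The part of these cell type differences in the values of the flanking genes was not tested, and fewer cells of a type and less RNA per cell cannot be told apart in such samples.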

How the data were processed

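Total RNA of laser-captured Paneth cells was extracted, amplified and biotin-labelled and put on 1-colour arrays, 2 per group, per the labels' protocols. The authors deposited 1 linear intensity per probe set and array, and the sources used here do not state the scaling, background correction or probe summary. The arrays' trimmed means (2% off each end) lay within a factor of 1.02, so no further scaling was applied. Array medians lay between 47.2 and 49.5, and rank correlations were 0.968 between hypomorph arrays and 0.972 between wildtype arrays. The platform annotation named probe sets (34945 of 45037 with 1 symbol), which were ordered by a RefSeq gene table (GRCm38.p6). The series names no build, and coordinates are printed only for the promoter windows of the called members.

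Probe sets at or above the median mean log2(intensity + 32) of 6.32 were tested. limma 3.58.1 under R 4.3.3 fitted the group as the only term (eBayes with an intensity trend, 2 residual and 7.81 prior degrees of freedom), with two-sided p-values adjusted by Benjamini-Hochberg over 22519 probe sets. The number of arrays limits the precision. Named were Atg16l1, members with a called probe set, the 4 nearest tested members on each side, the 10 largest differences, the first and last tested member, and members whose probe sets differed by more than 0.5. Other members are given as context. Members, lists and the rule were chosen with earlier results of these data known. The fit was tested on simulated hypomorph and wildtype arrays of 22519 probe sets in which 200 differed. It recovered 12.7% of the changes of 0.5 (log2), 70.8% of those of 1 and 100% of those of 2, with 5 false calls. Alternatives were other scalings, added constants, filters and priors, the replicate number as a block, other ways to join probe sets, and each array left out.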

Additional observations from a re-analysis of the deposited data

How the results depend on the processing

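D2hgdh and Sh3bp4 were called under each of 9 other settings of the fit and without each array, with differences of -1.32 to -1.11 and 0.63 to 0.82. With the mean of a gene's tested probe sets, D2hgdh, Lrrfip1, Stk25 (-0.79, limma adjusted p = 0.0406) and Per2 (-0.67, limma adjusted p = 0.0215) were called and Sh3bp4, Usp40 (-0.41) and Mlph (-0.40) were not. Over the results for single named genes, Atg16l1 included, 292 kept their direction and their side of the threshold, 23 lost and 12 gained a call, and 9 changed sign. The sign changes concerned uncalled probe sets. With 1 array left out, the brightest probe set of Hdlbp ranged from -0.066 to 0.069, of Mlph from -0.183 to 0.049, of Ncl from -0.045 to 0.197 and of Eif4e2 from -0.233 to 0.112. Hdlbp was at -0.004 with median centring, and the mean of a gene's tested probe sets gave 0.197 for Eif4e2 and 0.095 for Ramp1, whose probe set was at -0.22. The cause was not tested.

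With no filter on dim probe sets, over 45037 probe sets, 303 were called (183 higher, 120 lower). Of the member probe sets 2 of 125 were (1 higher, 1 lower) and of the unlisted 1 of 64. With a filter at the 75th percentile, over 11260, 556 were called (244 lower), with 3 of 32 members (1 lower) and 1 unlisted. Without the intensity trend 323 of 22519 were called (192 higher, 131 lower), with 2 of 77 members (1 higher, 1 lower) and 1 of 27 unlisted. Quantile normalisation and an added constant of 1 each left 1 unlisted call, and a robust prior 3. Leaving out 1 array at a time gave 500 to 1648 calls (317 to 706 higher, 178 to 942 lower), 2 to 8 members (1 to 4 higher, 1 to 5 lower) and 1 to 3 unlisted. The lone array of a group is there assumed to vary like the other group.

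With the replicate number as a block 3206 of 22519 tested probe sets were called (1489 higher, 1717 lower), against 836 without it. Of the member probe sets 15 of 77 were called (6 higher, 9 lower), against 5 without it. Of the unlisted 6 of 27 were called, against 2 without it. Atg16l1 passed the threshold with the block (-0.35, limma adjusted p = 0.017). Replicate differences of both groups correlated at 0.264 over 22519 probe sets, but with a single pair of numbers the samples share only a number.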
